A study of Mus musculus with 32 samples.

Results

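The small (40S) subunit of the cytosolic ribosome binds the mRNA, carries it through a channel between its head and body, and reads the codons at the decoding site. It is built from an rRNA and a set of small-subunit ribosomal proteins (RPS), most of them named Rps and a number. 29 genes for such proteins were followed here in ribosome footprints of mouse neural stem cells (NSCs). They were given as a list of symbols, and each was matched to the Ensembl identifier of its protein-coding gene, pseudogenes left out. All 29 were found among the 23035 genes of the footprint tables, and all 29 passed the filter on low counts (at least 10 counts in at least 4 libraries) in footprints at both exposures.

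The mRNAs of most ribosomal proteins begin with a terminal oligopyrimidine (TOP) motif, a C at the cap followed by a run of C and T (U in the RNA). Such mRNAs are known to be translated when the kinase complex mTORC1 is active and to be held back when it is not, in part through the cap-binding protein Larp1. Proliferating stem cells make many ribosomes, and interferons are known to alter mRNA translation. The comparison asked whether IFN-β changed the ribosome occupancy of these mRNAs, relative to other mRNAs, early and late, and how evenly it did so from gene to gene.

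NSCs came from the ventricular-subventricular zone of male C57BL/6 mice, 8 to 12 weeks old, and were grown ex vivo. All groups are of this strain with no engineered allele, and they differ in treatment (vehicle or IFN-β) and exposure (2 h or 14 h). The long exposure is named by the labels, while parts of the study's text give a somewhat longer time for it. Each of the 4 groups held 4 replicates, described in the methods as different mice or cultures of different mice, each sequenced both as footprints and as total RNA, 32 libraries in all. The labels number the 14 h replicates from 1 to 4 and those of 2 h as 2, 3, 5 and 6, and vehicle and IFN-β libraries of equal number are treated as a pair. Cells in culture lack the neighbouring cell types of the niche, which limits what they model.

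Footprint libraries held 2956297 to 10505108 counts, and total RNA libraries 4362531 to 7877753 (vehicle) and 3992402 to 5692950 (IFN-β) at 2 h but only 1370008 to 2737111 at 14 h. Values below are CPM, counts scaled to a common library size with TMM, edgeR's correction for library composition. Changes in them are relative to the other genes of a library, and a change shared by all genes is not measured. The 8 NSC markers summed to between 11150 and 17800 CPM of footprints in every library. Markers of microglia stayed at or under 0.669 CPM and of endothelium at or under 0.43 CPM, with the microglial genes Aif1 and Cx3cr1 at 0 in all footprint libraries. Neuronal markers summed to 2.83 to 6.48 CPM, and the oligodendrocyte marker Mog was at 0 in all footprint libraries at 2 h. The 6 interferon-induced genes used as a check of the labels summed to 25.1 to 69.0 CPM in vehicle libraries and to 1906 to 6087 CPM in IFN-β libraries.

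Both footprint libraries numbered 3 at 2 h stood apart. Counts on the 29 genes made up 0.291% of the vehicle library and 0.363% of the IFN-β library, against 0.543% to 0.644% in the other 6 libraries at 2 h. The part of this difference in the results was not tested, and the results at 2 h are given with and without both libraries.

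After 14 h of IFN-β, footprints fell, relative to other genes, on 28 of the 29 genes (edgeR's quasi-likelihood test, Benjamini-Hochberg adjusted p under 0.05). Of all 12113 genes tested, 26.3% were called lower. The median log2 fold change of the 29 genes was -0.55, with a range from -0.79 for Rps27 to -0.15 for Rps27l, while the median of all genes tested was 0.00. The gene that did not pass was Rps27l (adjusted p = 0.066). Together the 29 genes took 0.654% ± 0.024 (SD, n = 4) of footprints in vehicle libraries and 0.474% ± 0.017 (SD, n = 4) in IFN-β libraries. The lowest vehicle library, at 0.618%, lay above the highest IFN-β library, at 0.498%. In bulk samples, fewer cells with many ribosomes and fewer footprints per cell cannot be told apart.

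Within pairs the fall was nearly uniform in direction. All 4 pairs were lower in 28 genes, and 3 of 4 in Rps12, a head protein with few counts, whose pair number 3 was at 0.02. Of all genes tested, 33.2% were lower in every pair. Vehicle and IFN-β libraries did not overlap in 23 of the 29 genes, against 23.7% of all genes tested. The 6 with overlap were Rps2, Rps4x, Rps12, Rps19, Rps27l and Rps28. With the replicate number as a block, 29 of 29 were called lower (31.0% of all genes), Rps27l among them at -0.16 (adjusted p = 0.0015).

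**Figure D1:**
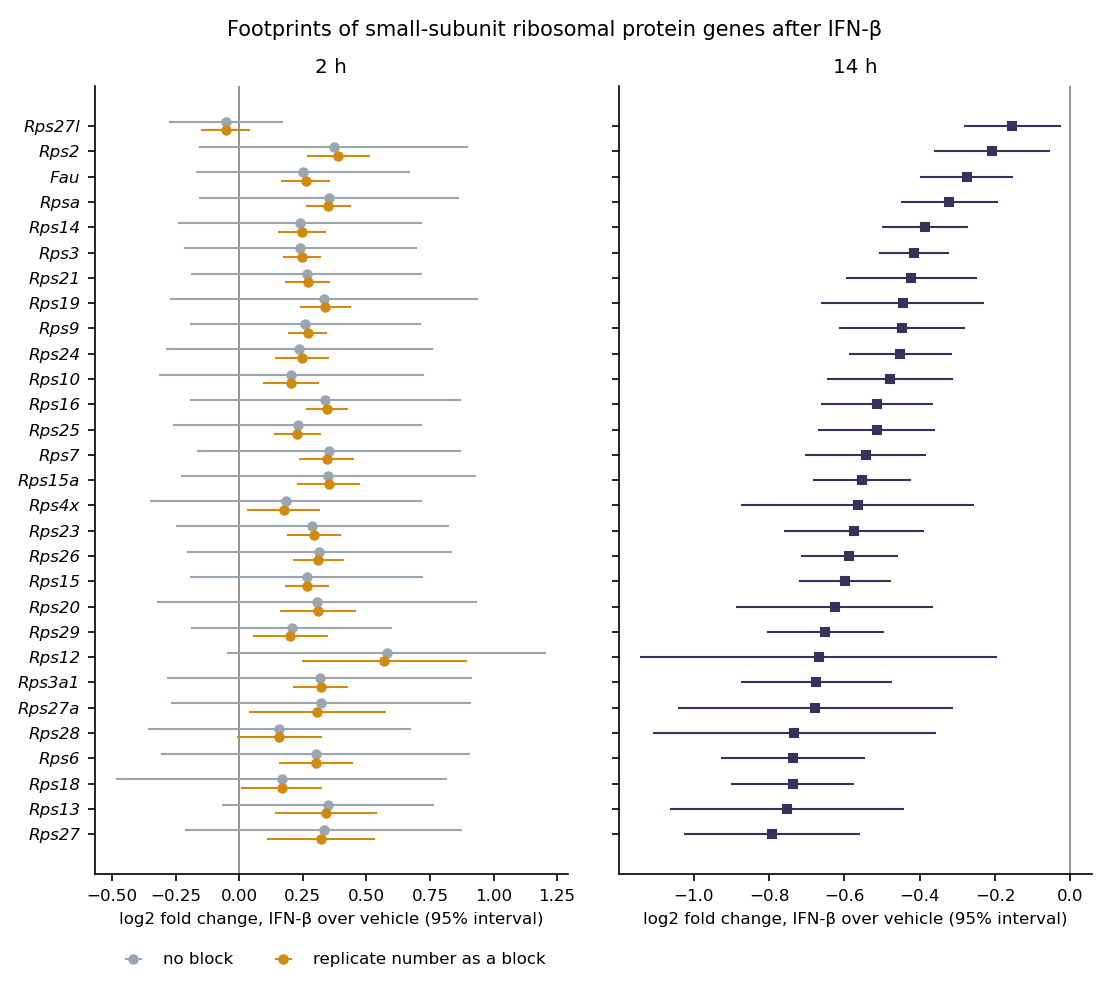
Log2 fold change of footprints (x axis, IFN-β over vehicle) for each of the 29 genes (y axis), at 2 h on the left and at 14 h on the right. Points are fitted values with unadjusted 95% intervals from 4 libraries a group, at 2 h without and with the replicate number as a block. At 14 h the values run from -0.79 to -0.15, and at 2 h all but that of Rps27l lie above 0, with intervals that include 0 in every gene without the block.

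After 2 h, no gene of the 29 was called in either direction (edgeR's quasi-likelihood test), and 0 of 29 reached an unadjusted p under 0.05. Of all 12104 genes tested, 5.25% were called higher. The fitted values nevertheless lay on the other side of 0 from those at 14 h: 28 of 29 were above 0, with a median of 0.29 and a range from -0.05 (Rps27l) to 0.58 (Rps12), beside a median of -0.02 for all genes. The groups overlapped in every gene of the 29, where 7.77% of all genes were higher with no overlap. As shares of the library, the 29 genes went from 0.481% ± 0.127 (SD, n = 4) with vehicle to 0.559% ± 0.132 (SD, n = 4) with IFN-β, and the spread within each group came mostly from the libraries numbered 3.

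Within pairs the early values were more even. In 24 genes all 4 pairs were higher with IFN-β, where 21.4% of all genes tested were. In Rps4x, Rps18, Rps27a and Rps29, 3 of 4 pairs were higher, and in Rps27l 2 of 4. With the replicate number as a block in the edgeR fit, 24 of 29 genes were called higher, against 15.9% of all genes. The 5 not called were Rps4x, Rps18, Rps27a, Rps27l and Rps28, with blocked values of 0.17, 0.17, 0.31, -0.05 and 0.16. Without both libraries numbered 3, and with no block, 13 were called higher (8.69% of all genes) and the median was 0.25.

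**Figure D2:**
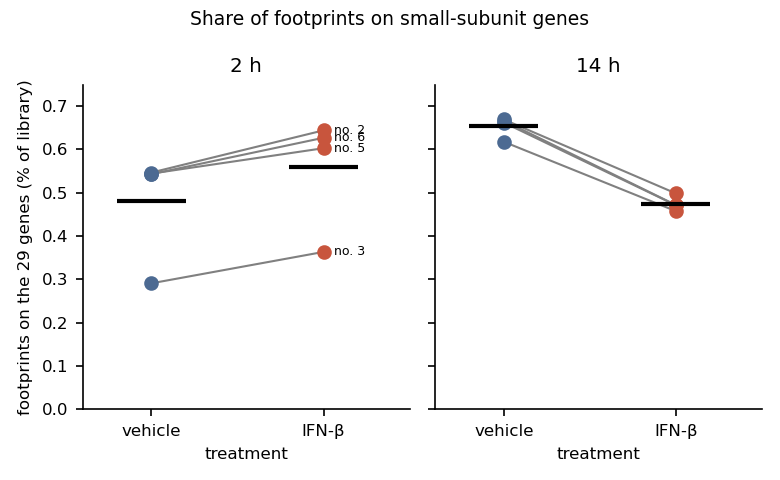
Footprints on the 29 genes as a percent of all counts in the library (y axis), for vehicle and IFN-β libraries (x axis) at 2 h and 14 h. Each point is a library, grey lines join libraries of equal replicate number, and black bars are group means of 4 libraries. The pair numbered 3 at 2 h lies at 0.291% and 0.363%, below the other pairs, and rises like them, while all 4 pairs fall at 14 h.

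The difference between the exposures was tested with an interaction term in a fit to all 16 footprint libraries, each exposure being set against its own vehicle libraries. All 29 genes had a lower value at 14 h than at 2 h, with a median difference of -0.84 (log2), and 13 of them passed (15.5% of all genes tested were called lower). The count was 28 with the replicate number as a block (27.5% of all genes) and 28 without both libraries numbered 3 (21.2%). Without single libraries the count ran from 4, when the IFN-β library numbered 6 at 2 h was left out, to 28, when the IFN-β library numbered 3 at 2 h was. The largest differences were those of Rps12 at -1.23 ± 0.43 (SE, adjusted p = 0.039) and Rps27 at -1.11 ± 0.32 (SE, adjusted p = 0.015). The smallest were Fau at -0.52 (adjusted p = 0.11) and Rps27l at -0.09 (adjusted p = 0.65), whose 95% interval ran from -0.36 to 0.18. Rps27l was also the gene not called under the block and without the libraries numbered 3.

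Rps27 and Rps27l are paralogues of the same length, 84 codons, whose proteins take the same place on the platform of the subunit. Rps27l is known as a target of p53. They stood at opposite ends of the order at 14 h. Rps27 footprints were at 23.3, 20.1, 21.05 and 21.95 CPM in vehicle cultures 1 to 4 and at 13.4, 10.5, 15.2 and 11.3 CPM with IFN-β. Every IFN-β library was below every vehicle library, and the fitted change was -0.79 ± 0.12 (SE, adjusted p = 0.00011). Rps27l was at 203, 246, 231 and 227 CPM with vehicle and at 189, 205, 218 and 203 CPM with IFN-β. Each IFN-β library was below its own vehicle library, but the groups overlapped, at -0.15 ± 0.07 (SE, adjusted p = 0.066).

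At 2 h, Rps27 was at 18.6, 7.93, 13.4 and 15.7 CPM in vehicle cultures 2, 3, 5 and 6 and at 19.9, 10.7, 17.7 and 21.7 CPM with IFN-β, higher in each pair. Rps27l was at 229, 176, 222 and 226 CPM with vehicle and 232, 180, 195 and 215 CPM with IFN-β, higher in 2 pairs and lower in the others. Rps27l held 10.6 ± 1.47 (SD, n = 4) times the footprints of Rps27 in 14 h vehicle libraries and 16.5 ± 2.69 times in 14 h IFN-β libraries, from 8.73 to 12.3 and from 14.1 to 19.6. At 2 h the ratio was 16.3 ± 4.26 with vehicle and 12.3 ± 3.03 with IFN-β, and it was lower with IFN-β in each of the 4 pairs. Of the 30-base windows of its coding sequence, 100% in Rps27 and 62.4% in Rps27l also occur in transcripts of other genes, so the values of Rps27 are the less certain.

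**Figure D3:**
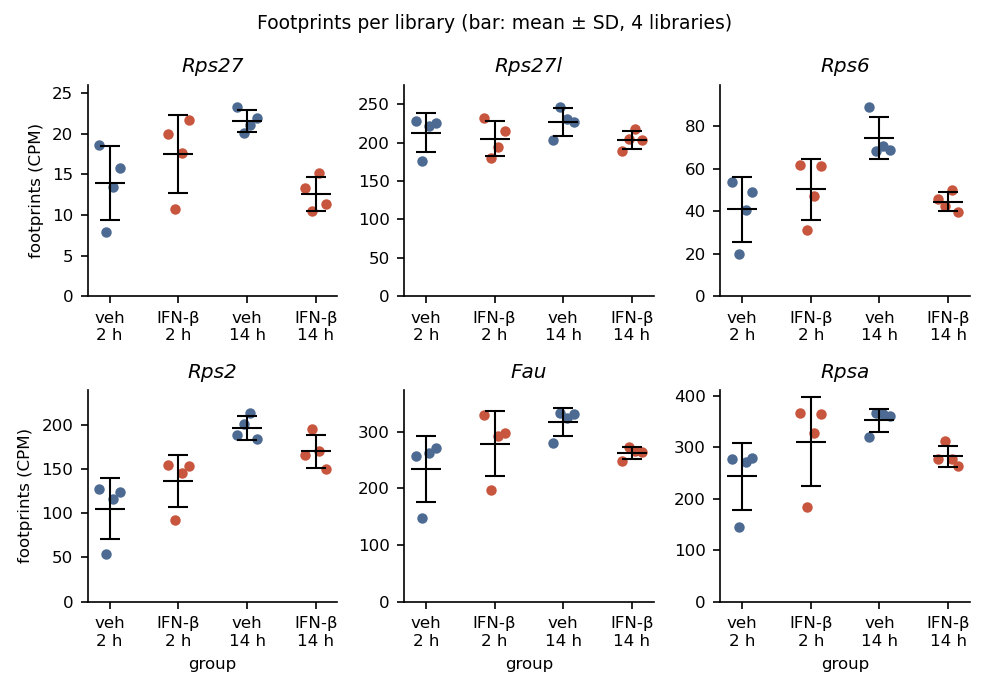
Footprints in CPM (y axis, from 0) of 6 genes in each library, by group (x axis), with the mean and SD of 4 libraries in black. Rps27 and Rps6 separate the groups fully at 14 h, Fau and Rpsa do so more narrowly, and Rps2 and Rps27l overlap between groups.

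Start sites of the 4 genes that fell most and the 4 that fell least at 14 h are shown because the TOP motif is defined by the first bases of the mRNA. Each window holds the 15 bases before and the 15 bases from the start annotated by RefSeq on GRCm38.p6, and capitals mark the first base and the C and T that follow it without a break where that first base is a C. Rps27 is read from chr3:90213634-90213663 on the minus strand, Rps13 from chr7:116334176-116334205 on the minus strand, Rps6 from chr4:86857353-86857382 on the minus strand, Rps18 from chr17:33955651-33955680 on the minus strand, and Fau from chr19:6057932-6057961 on the plus strand. Rps2 is read from chr17:24720048-24720077, Rpsa from chr9:120127751-120127780 and Rps27l from chr9:66946071-66946100, all on the plus strand, the last being the first of its listed starts.
Rps27: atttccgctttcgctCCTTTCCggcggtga
Rps13: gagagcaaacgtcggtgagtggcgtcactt
Rps6: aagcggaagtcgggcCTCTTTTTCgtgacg
Rps18: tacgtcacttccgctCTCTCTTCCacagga
Fau: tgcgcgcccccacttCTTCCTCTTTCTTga
Rps2: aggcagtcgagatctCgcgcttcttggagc
Rpsa: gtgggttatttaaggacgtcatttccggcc
Rps27l: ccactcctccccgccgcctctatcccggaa

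A C at the annotated first base followed by at least 4 C or T was found at the start of 7 of the 25 genes with a window (Rps6, Rps10, Rps15a, Rps18, Rps21, Rps27 and Fau), searched on the sense strand at that base only. Rps14, Rps20, Rps27a and Rps29 were without a window. Starts on chromosome 18, where Rps14 lies, were not read for these genes, so Rps14 may have an annotated start. Some genes have several starts: the same pattern stood at 7 of the 30 starts read for these genes (23.3%). It stood at 2.51% of the 32851 RefSeq starts, which were counted without that limit. At 14 h the 7 genes had a median log2 change of -0.55, from -0.79 to -0.28, and the 18 others with a window one of -0.53, from -0.75 to -0.15. Fau has the longest run, 13 bases, and was among the 4 genes that fell least. An annotated start can lie some bases from the start used in these cells, so a window without the pattern says only that it is not at this base. By the list of TOP mRNAs that the study compiled, used here for membership only and not as independent evidence, the 17 listed genes had a median of -0.51 at 14 h and 17 called lower. The 12 unlisted genes had a median of -0.66 and 11 called lower. Rps6 and Rps27, which have the pattern at the annotated start, are among the unlisted genes, so the definitions differ for them. The medians were not tested against each other. At 2 h these medians were 0.26 and 0.32.

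Grouped by place on the subunit, the ranges of the 4 groups overlapped at 14 h, and the medians were not tested against each other. The 4 proteins of the mRNA entry channel and decoding site (Rps2, Rps3, Rps23 and Fau) had a median of -0.35 at 14 h, from -0.57 to -0.21. The 9 of the platform and mRNA exit had a median of -0.59, from -0.79 (Rps27) to -0.15 (Rps27l). The 6 of the body, Rps6 among them, had a median of -0.55, from -0.74 to -0.45. The 10 of the head had a median of -0.61, from -0.74 (Rps18) to -0.45, and all 10 were called. At 2 h the medians of these 4 groups were 0.27, 0.31, 0.28 and 0.29.

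Rps6, the substrate of the S6 kinases downstream of mTORC1, was among the genes that fell most. It was at 88.9, 68.5, 70.7 and 68.7 CPM in vehicle cultures 1 to 4 at 14 h and at 45.8, 42.3, 50.1 and 39.8 CPM with IFN-β. The groups stood well apart (-0.74 ± 0.10 SE, adjusted p = 3.7e-05). At 2 h it was at 53.9, 19.6, 40.7 and 49.0 CPM in vehicle cultures 2, 3, 5 and 6 and at 61.6, 31.0, 47.3 and 61.1 CPM with IFN-β. It was higher with IFN-β in all 4 pairs, by 0.19, 0.65, 0.21 and 0.31 (log2), the 0.65 being pair number 3. Of its own kinases and their relatives, a list of 5 genes, Rps6kb1 fell at 14 h (-0.43, adjusted p = 0.0022). Rps6kb2 (0.50), Rps6ka1 (0.42) and Rps6ka2 (0.40) rose, and Rps6ka3 was at -0.14 (adjusted p = 0.076, and 0.042 with the block). At 2 h, 1 of the 5 was called higher and 1 lower, with and without the block. With the block these were Rps6ka3 (0.67) and Rps6ka2 (-0.43), where 15.9% of all genes were called higher and 13.4% lower.

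Rps18 of the head and Rps13 of the platform fell about as far as Rps6. Rps18 went from 67.3, 52.7, 54.8 and 56.4 CPM to 36.5, 33.3, 32.9 and 35.7 CPM in the 14 h pairs, and Rps13 from 42.2, 25.7, 31.1 and 30.003 CPM to 25.4, 15.6, 19.5 and 17.6 CPM. In neither gene did the groups overlap. Fitted changes were -0.74 ± 0.08 (SE) and -0.75 ± 0.16 (SE). Rps28, a small protein at the mRNA exit, was at 66.2, 33.6, 41.2 and 43.7 CPM with vehicle and 38.8, 25.3, 24.2 and 25.3 CPM with IFN-β. Both libraries numbered 1 were the highest of their groups, and the IFN-β library numbered 1 lay above the vehicle library numbered 2. At 2 h, Rps13 was at 19.9, 11.5, 17.2 and 15.6 CPM with vehicle and 25.3, 14.0, 19.2 and 23.1 CPM with IFN-β, higher in each pair. Rps18 was at 39.4, 15.0, 40.3 and 39.1 CPM with vehicle and 47.0, 20.4, 38.7 and 43.7 CPM with IFN-β, lower in pair number 5 and higher in the others. Rps28 was at 28.1, 16.96, 34.02 and 32.0 CPM with vehicle and 36.0, 17.6, 34.4 and 35.5 CPM with IFN-β, and pairs 3 and 5 barely differed. Rps18 and Rps28 had the lowest fitted values at 2 h beside Rps27l, 0.17 and 0.16. Both were under 0 (-0.070 and -0.012) without the vehicle library numbered 3 alone. Without both libraries numbered 3 they were at 0.12 and 0.17, and neither was called.

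Fau and Rps27a encode fusion proteins, in which a ubiquitin-like or ubiquitin moiety is cut from the ribosomal protein (Rps30 in Fau, eS31 in Rps27a). Fau was at 281, 334, 324 and 332 CPM with vehicle at 14 h and at 248, 272, 265 and 264 CPM with IFN-β, a narrow gap (-0.28 ± 0.06 SE, adjusted p = 0.0026). Rps27a was at 22.7, 11.5, 14.9 and 16.01 CPM with vehicle and at 11.0, 8.46, 10.4 and 10.3 CPM with IFN-β, with no overlap. The counts behind Rps27a are few, 33 to 167 a library at 14 h, and its change of -0.68 has a wide error (0.19 SE, adjusted p = 0.0083). At 2 h, Fau was at 257, 147, 262 and 272 CPM with vehicle and 329, 197, 293 and 297 CPM with IFN-β, higher in all 4 pairs. Rps27a was at 9.84, 5.01, 10.8 and 10.04 CPM with vehicle and 12.8, 6.27, 10.2 and 15.1 CPM with IFN-β, higher in 3 pairs and lower in pair number 5.

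Rpsa, known also as the laminin receptor, and Rps2, at the entry channel, were both called higher at 2 h under the block (0.35 and 0.39) and were among the genes that fell least at 14 h. Rpsa was at 320, 368, 365 and 360 CPM with vehicle and 278, 313, 277 and 264 CPM with IFN-β at 14 h (-0.32 ± 0.07 SE, adjusted p = 0.0012). Rps2 was at 188, 201, 214 and 183 CPM with vehicle and 165, 195, 170 and 150 CPM with IFN-β. Its groups overlapped, and the change of -0.21 ± 0.08 (SE) passed narrowly (adjusted p = 0.040). Leaving out single libraries gave Rps2 adjusted p-values up to 0.153. At 2 h, Rpsa was at 278, 145, 271 and 280.2 CPM with vehicle and 367, 185, 327 and 366 CPM with IFN-β, and Rps2 at 127, 53.5, 116 and 124 CPM and at 155, 92.1, 145 and 153 CPM. Both were higher with IFN-β in each pair, and in both the pair numbered 3 was the lowest of its group.

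Rps12, which had the highest value at 2 h and the largest difference between exposures, is the gene with the fewest footprints. It was at 5.65, 2.64, 6.04 and 6.52 CPM with vehicle and 9.22, 4.65, 6.68 and 10.5 CPM with IFN-β at 2 h, higher in each pair. At 14 h it was at 20.4, 11.6, 8.84 and 12.0 CPM with vehicle and 11.4, 6.46, 9.004 and 7.07 CPM with IFN-β, and the groups overlapped. Its change of -0.67 ± 0.24 (SE, adjusted p = 0.034) rests on 34 to 125 counts a library, and leaving out single libraries gave adjusted p-values up to 0.0982.

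**Figure D4:**
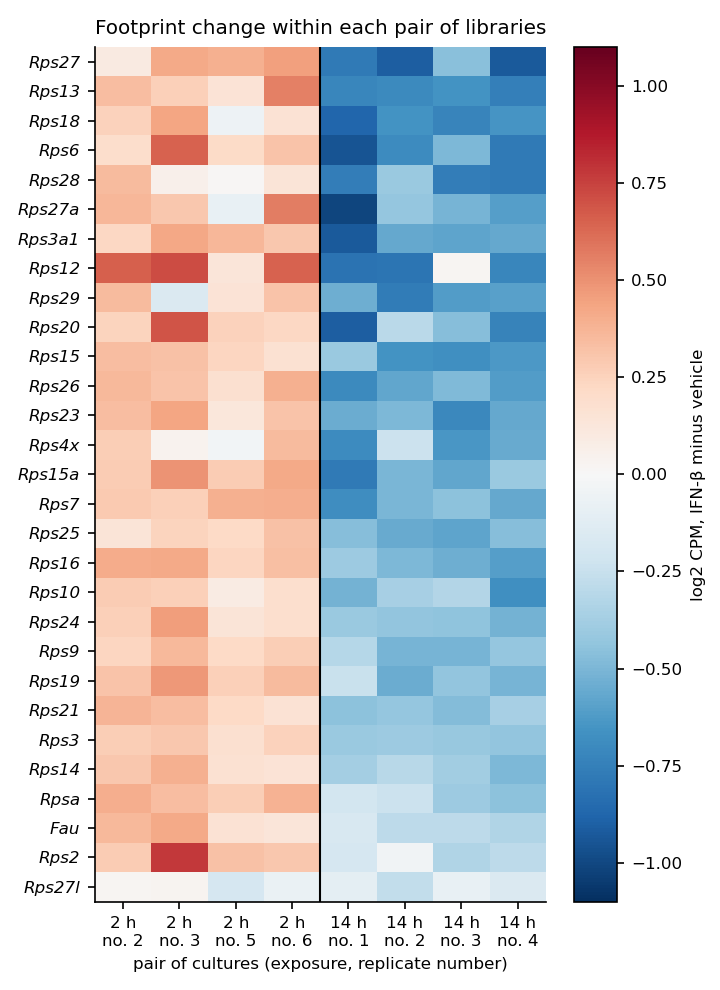
Log2 difference in CPM between IFN-β and vehicle (colour, red higher and blue lower) for each gene (rows, ordered by the fitted change at 14 h) in each pair of cultures (columns, by exposure and replicate number). The 2 h columns are mostly red and the 14 h columns blue. Rps27l in the bottom row is close to white throughout, from -0.27 to 0.03, and Rps12 in pair number 3 at 14 h is the single exception on the late side.

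To compare the genes with each other rather than with the whole library, each library was also scaled to the geometric mean of the 29 genes. On this scale, 7 genes were called apart from the rest at 14 h, with p-values adjusted over all genes tested. Higher were Rps27l at 0.37 ± 0.08 (SE, adjusted p = 0.00074), Rps2 at 0.32 (adjusted p = 0.0038), Fau at 0.25 (adjusted p = 0.0094) and Rpsa at 0.20 (adjusted p = 0.028). Lower were Rps27 at -0.27 ± 0.12 (SE, adjusted p = 0.049), Rps6 at -0.21 (adjusted p = 0.040) and Rps18 at -0.21 (adjusted p = 0.023). Of all genes tested, 74.1% were called higher and 5.73% lower on this scale, since the scale itself falls with the 29 genes and the median of all genes moved to 0.53. With so many genes called, the adjustment was weak, and the same counts, 4 higher and 3 lower, had an unadjusted p under 0.05. These adjusted p-values therefore do not limit false calls among the 29 genes alone. The calls in the lower direction were lost in full without the IFN-β library numbered 2.

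With the replicate number as a block, 7 were higher (77.8% of all genes) and 5 lower (6.66%), with the same limit on the adjustment. At 2 h no gene moved apart in the fit without the block. With the block, Rps27l alone was called, lower than the rest by -0.34 (adjusted p = 5.9e-06), where 64.9% of all genes were called lower. The order of the genes at 14 h was shared in part between pairs: over 29 genes, Spearman's rho between the changes of any 2 pairs ran from 0.367 to 0.715. At 2 h it ran from -0.0906 to 0.365. Pairs share their genes' depth and length, and these values are descriptions across genes.

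The level of the 29 genes was uneven, although the proteins stand in the subunit in equal numbers, save that Rps27 and Rps27l share a place. Per codon, footprints in 2 h vehicle libraries ran from 0.0395 CPM for Rps12 to 3.85 CPM for Rps21, a 97.6-fold range, with a median of 0.79 CPM. The next highest were Rps9 at 3.74, Rps3 at 2.83 and Rps16 at 2.72 CPM per codon, and the next lowest Rps27a at 0.0571, Rps13 at 0.106, Rps6 at 0.164 and Rps27 at 0.166. The order was nearly the same in 14 h vehicle libraries (rho 0.99, n = 29), where Rps21 was at 4.88 and Rps12 at 0.100 CPM per codon.

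Many of these genes have processed copies in the genome. A median of 96.6% of the 30-base windows in the 29 coding sequences also occur in transcripts annotated to other genes. The share was 20.1% in Rps3 and 100% in 11 genes. How many of those other genes are pseudogenes was not counted. Levels per codon were lower in genes whose windows occur in more other genes (rho -0.65, n = 29), from 1 other gene for Fau to 98 for Rps2, which ranked only 20 of 29 by level. The median share of such windows was 98.6% in 50 genes of the large subunit and 0% in 41 assembly factors. Bowtie was run with its standard options, under which a single alignment is reported for a read that fits several places, so levels of single genes are uncertain.

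Level and change were related across these genes: the lower the level per codon in the 2 h vehicle libraries, which take no part in the 14 h comparison, the lower the change at 14 h (rho 0.70, n = 29). The change was related to the share of shared windows as well (rho -0.49), and little to length (rho 0.16). In 49 genes of the large subunit the corresponding values were 0.22 for level and 0.091 for shared windows. Genes are not independent replicates, the parts of level and of shared windows were not separated, and whether reads of pseudogenes contribute was not tested. Removal of duplicates caps counts of short, abundant genes, and its part in the relation was not tested. Of the 3 genes with the smallest shares of such windows, Rps3 (20.1%) and Rps9 (56.7%) were called lower at 14 h, at -0.42 and -0.45, and Rps27l (62.4%) was not, at -0.15.

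**Figure D5:**
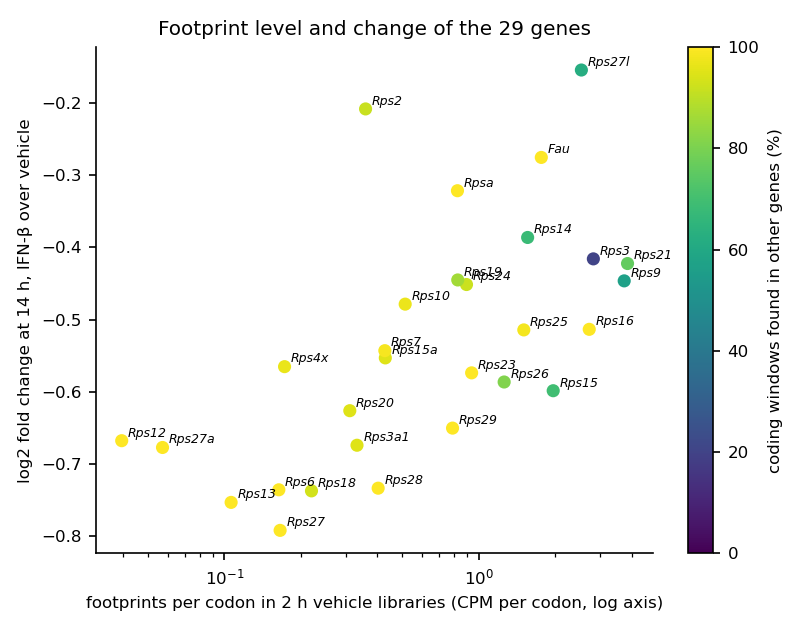
Footprints per codon in 2 h vehicle libraries (x axis, log scale) against the log2 fold change at 14 h (y axis) for the 29 genes, coloured by the percent of 30-base coding windows that occur in other genes. Low-level genes such as Rps13, Rps6 and Rps27 lie at the bottom left and Rps27l at the upper right, with Rps2 above genes of like level.

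Total RNA gave little on these genes. The median gene of the 29 had 13.5 counts a library at 2 h and 1.5 at 14 h, beside 924 and 991.5 in footprints, and 2 genes (Rps7 and Rps13) had no total RNA count at 14 h. Of the 29, 16 passed the filter at 2 h and 5 at 14 h, and none was called in edgeR, where 0.722% of genes tested were called higher at 2 h and 2.83% lower at 14 h. Unadjusted, 2 were higher at 2 h and 1 lower at 14 h at p under 0.05. In 7 genes that have an annotated gene on the opposite strand the median count at 2 h was 41.5, against 7.75 in the other 22. The strand setting of the counting is not given in the sources used here. The gene with the most total RNA counts was Rps2, opposite Snhg9 and Snora78, with 355 to 1737 at 14 h (-0.89 ± 0.30 SE, adjusted p = 0.11).

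Translation efficiency (TE), the footprint change beyond the total RNA change, rests on those few counts. Its test was an interaction term between treatment and library type, called in edgeR at an adjusted p under 0.1. The filter took both library types together and footprints alone could meet it. All 29 genes were therefore tested, Rps7 and Rps13 among them. No gene of the 29 was called at 2 h (0.234% of genes tested were called lower), and 0 reached an unadjusted p under 0.05. At 14 h, 5 were called lower, against 3.91% of genes tested: Rps18 (-0.93), Rps28 (-1.05), Rps25 (-1.14), Rps16 (-2.37) and Fau (-1.36). Rps16 had 0 to 6 total RNA counts with vehicle and 2 to 18 with IFN-β, and Fau 1 to 8 and 4 to 14. Rps18, Rps25 and Rps28 each lie opposite another gene. The count was 1 without the footprint and total RNA libraries of IFN-β replicate 3. Whether footprints fell beyond the mRNA could not be resolved for most of the 29 genes at this depth.

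Most related genes listed were lower at 14 h too. The scaffold protein of the small subunit Rack1, outside the 29, fell at 14 h (-0.32), and Rps4l, annotated as a transcribed pseudogene, was at -0.08 (adjusted p = 0.54). Of 49 large-subunit genes tested, 42 fell and 0 rose at 14 h (median -0.46), and 0 were called at 2 h (median 0.26), with 0 at an unadjusted p under 0.05. With the replicate number as a block, 40 of the 49 were called higher at 2 h, and their summed share of the library was higher with IFN-β in all 4 pairs, from 1.04% to 1.22%, 0.527% to 0.669%, 0.999% to 1.13% and 1.02% to 1.19%. Of 41 factors that assemble the small subunit, 33 fell and 0 rose at 14 h (median -0.37), with Nop58 (-0.99) and Nop56 (-0.79), core proteins of the particles that methylate rRNA, lowest. At 2 h 1 was called higher, Noc4l (0.78), and the median was 0.18, while 19 were called higher with the block. The difference between these medians and that of the 29 genes was not tested. Of 4 regulators of TOP mRNAs, Larp4 (-0.40), Eif4ebp1 (-0.27) and Eif4ebp2 (-0.29) fell at 14 h, and Larp1 was at 0.00 (adjusted p = 0.97). At 2 h none of the 4 was called without the block, where 1 reached an unadjusted p under 0.05, and Larp1 (0.32), Larp4 (0.26) and Eif4ebp1 (0.42) were called higher with it.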

How the data were processed

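Ribosome footprints and total RNA of 32 libraries were analysed from raw read counts for each gene, as deposited. The authors treated cells briefly with cycloheximide, isolated monosomes after RNase I, trimmed reads (Trim Galore 0.4.4 per the labels), mapped them with Bowtie 0.12.7 at its standard options to the mm10 transcriptome, removed duplicates and counted with SummarizeOverlaps in Union mode, footprints in coding sequence. Removal of duplicates without molecular identifiers caps counts of short, abundant genes. Totals are given with the results, and counting error is largest in genes with few counts.

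The 29 genes and all gene lists were chosen with earlier results of these data known. Groups came from the sample labels. Genes reaching 10 counts in 4 or more libraries were tested in R 4.3.3 with edgeR 4.0.16 (TMM, quasi-likelihood test, two-sided, Benjamini-Hochberg over all genes tested, calls at 0.05 and for TE at 0.1). DESeq2 1.42.0 and limma 3.58.1 served as alternatives, with other scalings, filters, a replicate block and single libraries left out. Leaving out both libraries numbered 3 at 2 h, and the block on the lists outside the 29 genes, were chosen after seeing the data. Replicate numbers pair the footprint libraries: deviations from group means of equal-numbered libraries correlated at 0.345 to 0.821 at 2 h and 0.203 to 0.434 at 14 h, in each case above any other number. Total RNA libraries of equal number correlated at -0.483 to 0.389 at 2 h, in each case under the highest other number. At 14 h these values were 0.246, 0.0934, -0.00979 and 0.0503 for numbers 1 to 4, above any other number except for number 3. Pair differences used log2(CPM + 0.5). No 2 libraries held identical values. Scripts were tested on simulated data.

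Codons and 30-base windows were taken from GENCODE M21, of the same build as the files, by the principal coding sequence of each gene. Values in each footprint library are given for 11 genes: the 4 lowest and highest at 14 h, the 3 lowest and highest at 2 h, the 2 lowest and highest differences, up to 4 called against the geometric mean, and Rps6, Rps27, Rps27l, Fau, Rps27a and Rpsa. Start sites were taken from RefSeq on GRCm38.p6. A few marker and ribosomal protein genes outside the 29 are not reported here.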

Additional observations from a re-analysis of the deposited data

Results flagged for a closer look

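In groups of 4 libraries, the library farthest from the others was compared with the range of the group (Dixon's ratio, at its 95% critical value), for 11 genes and the summed share in 4 footprint groups. Of 48 such groups 14 passed, where chance would pass about 1 in 20. Most of them fall on the libraries numbered 3 at 2 h. In the vehicle library numbered 3, Rps18 was at 15.0 CPM, Rpsa at 145 CPM, Fau at 147 CPM, Rps2 at 53.5 CPM, Rps27l at 176 CPM, Rps27a at 5.01 CPM and the summed share at 0.291%, each the lowest of its group. In the IFN-β library numbered 3, Rps2 was at 92.05 CPM, Rps28 at 17.6 CPM and the summed share at 0.363%, again the lowest. At 14 h the vehicle library numbered 1 stood apart with the highest Rps6 (88.9 CPM), the lowest Rpsa (320.0 CPM) and the lowest summed share (0.618%), and the IFN-β library numbered 1 with the highest Rps28 (38.8 CPM). The library numbered 1 in IFN-β had the lowest total, 2956297 counts.

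The response differed between 14 h and 2 h, by the interaction of time and treatment in edgeR, in 13 genes, all lower at 14 h. The differences in log2 fold change were -1.23 for Rps12, -1.11 for Rps27, -1.08 for Rps13, -1.03 for Rps6, -1.003 for Rps27a, -0.98 for Rps3a1, -0.90 for Rps15a, -0.89 for Rps7, -0.89 for Rps26, -0.86 for Rps23, -0.85 for Rps15, -0.84 for Rps16 and -0.84 for Rps29. Both exposures have their own vehicle cultures and separate tables, so exposure and culture batch cannot be told apart except through these controls.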

How the results depend on the processing

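Footprint medians kept their direction under every scaling, filter, tool and left-out library tried: 0.09 to 0.46 at 2 h, -0.57 to -0.52 at 14 h and -1.01 to -0.65 for 14 h minus 2 h. At 14 h, 26 to 29 genes were called lower throughout. At 2 h the count called higher was 0 in the main setting, 24 with the replicate block, 13 without both libraries numbered 3 and 25 with both changes. Of all genes tested, 5.25%, 15.9%, 8.69% and 14.6% were called higher in these settings. With single libraries left out at 2 h, signs turned for Rps18 (-0.070 to 0.36) and Rps28 (-0.012 to 0.34), in both without the vehicle library numbered 3. The sign of Rps27l (-0.14 to 0.0065) turned without the IFN-β library numbered 3. Without both libraries numbered 3, Rps18 was at 0.12, Rps28 at 0.17 and Rps27l at -0.08, none of them called. For 14 h minus 2 h, the count called lower was 28 with the block and 28 without both libraries numbered 3, and 4 to 28 with single libraries left out. Relative to the geometric mean at 14 h, 1 was called lower in DESeq2, 5 with the block (7 higher), and 0 to 3 with single libraries left out. At 2 h, 1 was called lower with the block (64.9% of all genes) and 1 without both libraries numbered 3 (39.9% of all genes). In total RNA at 14 h, 1 was called lower without a filter. In TE at 14 h, 1 was called lower with a mean of at least 50 counts, where 2 genes (Rps2 and Rps28) remained and the median was -0.11 against -0.85, and 1 to 6 were with single replicates left out (6 with the block). The range of levels was 139-fold as shares without length, in place of 97.6-fold, and 94.3-fold to 101.5-fold without single vehicle libraries. The replicate block, the pairing by number, changed no other count of the 29 genes by over 1.5 times. In the other lists it called 40 large-subunit genes, 19 assembly factors and 3 TOP regulators higher at 2 h, against 0, 1 and 0 without it. Causes of these changes were not tested. Few counts in Rps12 and Rps27a, and low total RNA counts, limit precision.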
